A study of Mus musculus with 6 samples.

Results

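The cytosolic translation initiation factors (gene symbols starting with Eif and a digit) and elongation factors (symbols starting with Eef) were examined in activated CD8 T cells labelled as Utx knockout (Utx KO) and as wild type (WT). Of 69 gene symbols that began this way, 7 were dropped by name, namely 4 eIF2 kinases (Eif2ak) and 3 eIF4E-binding proteins (Eif4ebp), and 62 remained. A further 3 of the 62 stayed below the level limit of 1 CPM in 3 or more libraries, where CPM stands for a gene's reads scaled to a common library total. That left 59 members, 46 initiation and 13 elongation factors, of 10590 genes tested. Single members were taken by name and level limit, not by a difference between genotypes. The gene family itself was chosen with earlier results of these data known.

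Translation begins when the small ribosomal subunit, loaded with the initiator tRNA by eIF2 and held in a scanning-competent state by eIF1, eIF1A and eIF3, is brought to the capped 5' end of an mRNA by the eIF4F complex. eIF5 and eIF5B then complete start codon recognition and the joining of the large subunit. During elongation eEF1A brings each aminoacyl-tRNA to the ribosome, the eEF1B complex reloads eEF1A with GTP, and eEF2 moves the ribosome along by a codon. T cell activation raises protein synthesis strongly, and both classes of factor are abundant in dividing lymphocytes. In mammals, the mRNAs of eEF1A, eEF2, the eEF1B subunits, eIF4B, several eIF3 subunits and the cytosolic poly(A)-binding protein are known to begin with an oligopyrimidine tract that couples their translation to mTORC1 through proteins such as Larp1.

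The Utx KO group and the WT group each had 3 libraries, labelled as biological replicates, from CD8 T cells of the spleen, taken from female mice of the C57BL/6 strain. Utx is the H3K27 demethylase encoded by Kdm6a, and the series asks how its loss alters expression in CD8 T cells. In both groups naive cells received antibodies to TCR-beta and CD28 plus interleukin 2 for 2 days and then interleukin 2 alone for 3 days, so RNA was taken at day 5 of culture. The labels do not give the age of the mice, how the knockout was made, in which cells the gene was deleted, or whether the replicates of a group came from separate animals, so p-values measure only the spread between these samples. Libraries were made with a kit that primes at the 3' end of polyadenylated RNA, which gives about 1 tag per transcript, so that CPM values of different genes were compared without a length correction.

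Library depth ran between 1619085 and 2529113 reads, and the upper limit for a gene without a read (3 reads) stood at 1.19 to 1.85 CPM. The reads covered T cells: 7 of 8 T cell markers were measured (Trac is listed at 0), and 8 of 13 markers of other cell types were at 0 in all libraries, the 13 together summing to between 0 and 8.65 CPM in Utx KO libraries and between 1.09 and 5.99 CPM in WT libraries. Among the T cell markers Cd3d, Cd3e and Cd8b1 were higher and Cd2 was lower in Utx KO cells, the calls of Cd3d and Cd2 holding under all 13 alternative settings, that of Cd3e being lost without WT replicate 1 and that of Cd8b1 under 5 settings. Their part in the results below was not tested. The targeted gene Kdm6a had 27.8, 39.4 and 31.5 CPM in Utx KO libraries, against 44.3, 49.3 and 53.6 CPM in WT libraries, a log2 fold change of -0.57 (SE 0.15, limma adjusted p = 0.0123). Its 3' tag may lie outside the deleted part, so these reads do not check the labels. That call was lost in DESeq2 and without Utx KO replicate 1, WT replicate 2 or WT replicate 3 (adjusted p over the 13 alternative settings 0.0056 to 0.0708). Correlation between libraries over all tested genes was 0.974 to 0.980 within a genotype and 0.959 to 0.967 between genotypes.

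Most of the core elongation factors were more abundant in Utx KO cells, while the initiation factors as a class were called about as often as any genes and in both directions. Among the elongation factors 4 of 13 rose, namely Eef1a1, Eef2, Eef1g and Eef1b2, and none fell. Among the initiation factors 4 of 46 rose, namely Eif4a2, Eif4b, Eif3h and Eif3d, and Eif5 fell. These counts come from limma with Benjamini-Hochberg adjustment over all 10590 genes at a threshold of 0.05, which called 10.8% of all tested genes, 5.28% as higher and 5.51% as lower. DESeq2 on the recovered reads called 5.62% of all tested genes and 6 of the 59 members, 3 in each class, all higher. The initiation share of 5 in 46, or 10.9%, lay at that background. The elongation share of 30.8% lay above the background, but it rests on 4 genes, all of them at over 500 CPM. Genes at that level were called more often in general: of 287 tested genes with a mean of at least 500 CPM, 27.2% were higher and 18.1% lower. The 30.8% covers elongation factors of any level, most of them below 500 CPM, so it is not like for like with these shares. At or above that limit all 4 elongation factors were higher. The initiation factors there were Eif2s2, Eif3a, Eif5a, Eif1, Eif3c, Eif5b and Eif4g1, and none of them was called. This level limit was chosen after the values were seen, and the part of level in the calls was not tested. In bulk RNA a change in the mix of cells and a change in RNA per cell cannot be told apart.

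Fold changes of the elongation factors lay mostly above 0 and those of the initiation factors on both sides. Of the 13 elongation factors 11 had a log2 fold change above 0, with a median of 0.14, whereas 20 of the 46 initiation factors lay above 0, with a median of -0.04. Over all tested genes 51% lay above 0 and the median was 0.01. All fold changes were fitted to log2(CPM + 1), so those of low genes are understated. Utx KO and WT libraries did not overlap for 5 of 13 elongation factors, all higher, and for 12 of 46 initiation factors, 7 higher and 5 lower. Over all tested genes 26.5% did not overlap, so the initiation share of 26.1% was again that of the background.

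**Figure D1:**
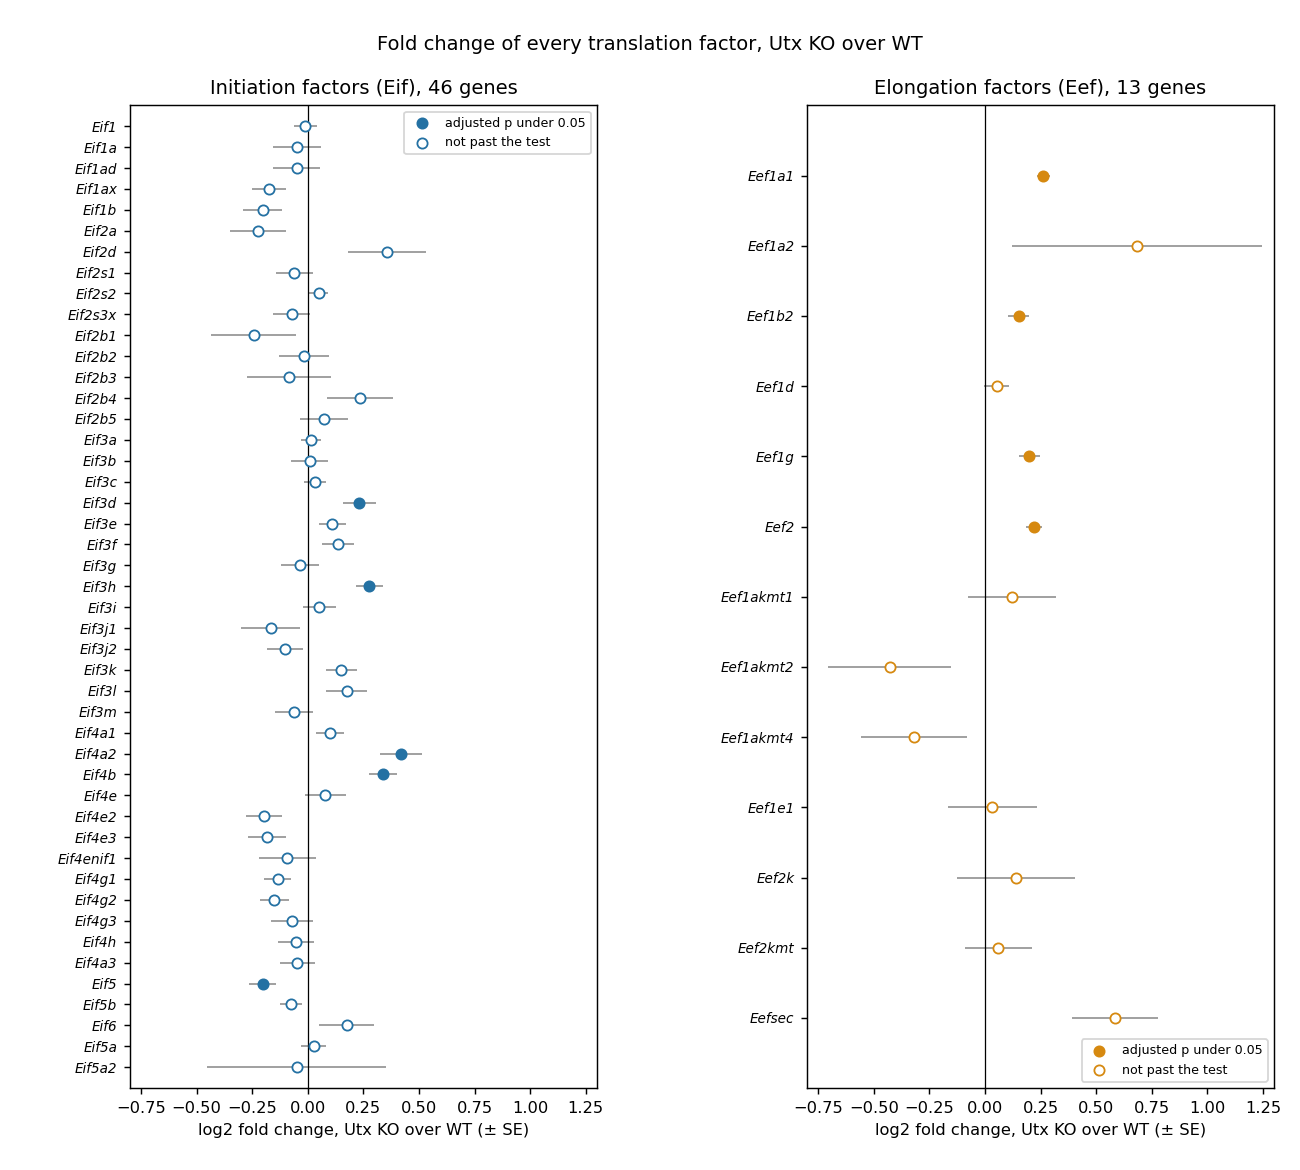
The log2 fold change of Utx KO over WT with its standard error (horizontal bars) for each of the 46 initiation factors (left) and 13 elongation factors (right), with filled points where the limma adjusted p was under 0.05. Filled points lie to the right of 0 for 4 elongation and 4 initiation factors and to the left only for Eif5, and the widest bars belong to the factors of lowest level.

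Summed over members, elongation factors held 11782, 11647 and 11812 CPM in Utx KO libraries, against 10083, 9952 and 10097 CPM in WT libraries. All Utx KO libraries were above all WT libraries, and the mean was 17.0% higher. The initiation factors summed to 13195, 12860 and 12563 CPM in Utx KO libraries, against 12621, 12981 and 12697 CPM in WT libraries. Here the groups overlapped and the means differed by 0.834%. The elongation sum divided by the initiation sum was therefore 0.893, 0.906 and 0.940 in Utx KO libraries, against 0.799, 0.767 and 0.795 in WT libraries, with means of 0.913 ± 0.0245 and 0.787 ± 0.0176 (SD, n = 3 each). These sums were over members of one name class and carry no p. Eef1a1 contributed most of the elongation sum. With Eef1a1 left out the elongation sum was still 13.5% higher in Utx KO libraries, and its ratio to the initiation sum was 0.408, 0.417 and 0.430 in Utx KO libraries, against 0.377, 0.367 and 0.370 in WT libraries, again without overlap. Most of that remaining difference lay in the called genes Eef2, Eef1b2 and Eef1g. The 7 enzymes and related genes of the class summed to 134 ± 5.91 CPM in Utx KO libraries and 127 ± 8.93 CPM in WT libraries (SD, n = 3 each), with overlap.

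**Figure D2:**
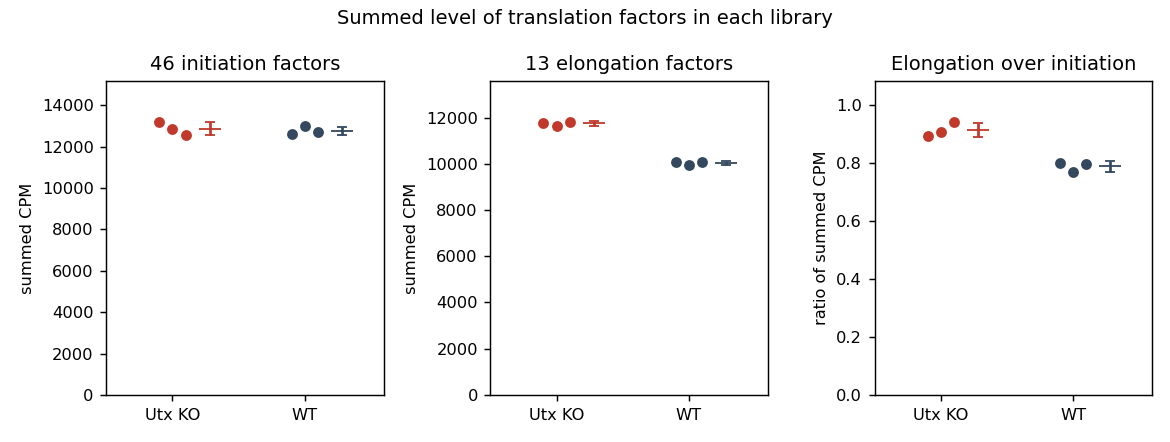
Summed CPM of the 46 initiation factors (left) and the 13 elongation factors (middle), and the elongation sum over the initiation sum (right), with 1 point per library and bars for mean ± SD (n = 3 each). The initiation sums overlap, whereas the elongation sums are 11647 to 11812 CPM in Utx KO libraries and 9952 to 10097 CPM in WT libraries.

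Eef1a1, the GTPase that carries aminoacyl-tRNA to the ribosome, was the most abundant member and ranked 5 among all genes by mean CPM. It had 6398, 6279 and 6415 CPM in Utx KO libraries, against 5320, 5184 and 5405 CPM in WT libraries. Every Utx KO library exceeded every WT library by several times the spread within a genotype, at a log2 fold change of 0.26 (SE 0.03, limma adjusted p = 9.03e-07). Of the 50-base pieces in the last 300 bases of its transcripts, 69.0% also occur in 17 other genes, and none of the 17 is listed in the tables, so its value is uncertain to that extent. The paralogue Eef1a2, which takes the place of Eef1a1 in muscle and neurons, lay at the limit of detection with 0, 3.43 and 1.24 CPM in Utx KO libraries, against 0, 1.38 and 0 CPM in WT libraries.

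Eef2, the translocase, had 2714, 2837 and 2808 CPM in Utx KO libraries, against 2357, 2383 and 2441 CPM in WT libraries. The groups were well separated, at 0.22 on the log2 scale (SE 0.04, limma adjusted p = 0.000121). In the eEF1B complex, which recharges eEF1A, Eef1g and Eef1b2 also rose. Eef1g, the gamma subunit of the eEF1B complex, had 827, 818 and 841 CPM in Utx KO libraries, against 729, 746 and 691 CPM in WT libraries, a log2 fold change of 0.20 (SE 0.05, limma adjusted p = 0.00697). Eef1b2, the subunit that exchanges GDP on eEF1A, had 1260, 1162 and 1183 CPM in Utx KO libraries, against 1137, 1087 and 1024 CPM in WT libraries, a log2 fold change of 0.15 (SE 0.05, limma adjusted p = 0.0402). The groups did not overlap in either gene, but for Eef1b2 the lowest Utx KO library stood close to the highest WT library, and its call was lost under 8 of 13 alternative settings, among them leaving out Utx KO replicate 1 or 3 or WT replicate 2 or 3 (adjusted p 0.021 to 0.207 over the settings). Eef1g lost its call only when WT replicate 3 was left out (limma adjusted p = 0.0508). Eef1d, the second exchange subunit, did not pass, with 445, 410 and 436 CPM in Utx KO libraries, against 407, 419 and 419 CPM in WT libraries (log2 fold change 0.05, 95% interval -0.06 to 0.17), an interval that ends below the fold change of Eef1a1. Among the 3 subunits of eEF1B, then, Eef1d alone had overlapping groups. For Eef1b2 22.5% and for Eef1d 20.3% of the 3' end pieces occur in other genes. The exons of Eef1b2 also overlap those of Ndufs1 on the opposite strand.

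The other 7 elongation-class genes are enzymes that modify eEF1A or eEF2, the selenocysteine factor and a tRNA synthetase partner, and none of them passed. They were expressed at 9.11 to 37.3 CPM, with standard errors of 0.15 to 0.27. For 5 of the 7 the 95% interval included the fold change of Eef1a1, so a change of that size was not excluded for these 5. Eefsec, the GTPase that delivers selenocysteine tRNA, came nearest, with 25.0, 22.8 and 24.7 CPM in Utx KO libraries, against 13.0, 16.6 and 18.1 CPM in WT libraries. Its groups did not overlap, with a log2 fold change of 0.59 (SE 0.19, limma adjusted p = 0.0524), and it passed when genes under 10 CPM were left out and in edgeR on the recovered reads. Eef2k, the kinase that inhibits eEF2, had 8.74, 11.4 and 8.65 CPM in Utx KO libraries, against 10.3, 7.37 and 8.21 CPM in WT libraries, with overlap. The eEF1A methyltransferase genes Eef1akmt2 and Eef1akmt4 were the only 2 members of the class below 0, at log2 fold changes of -0.43 and -0.32, and neither passed. Eef1akmt1, Eef1e1 and Eef2kmt overlapped between groups, at 0.12, 0.03 and 0.06.

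**Figure D3:**
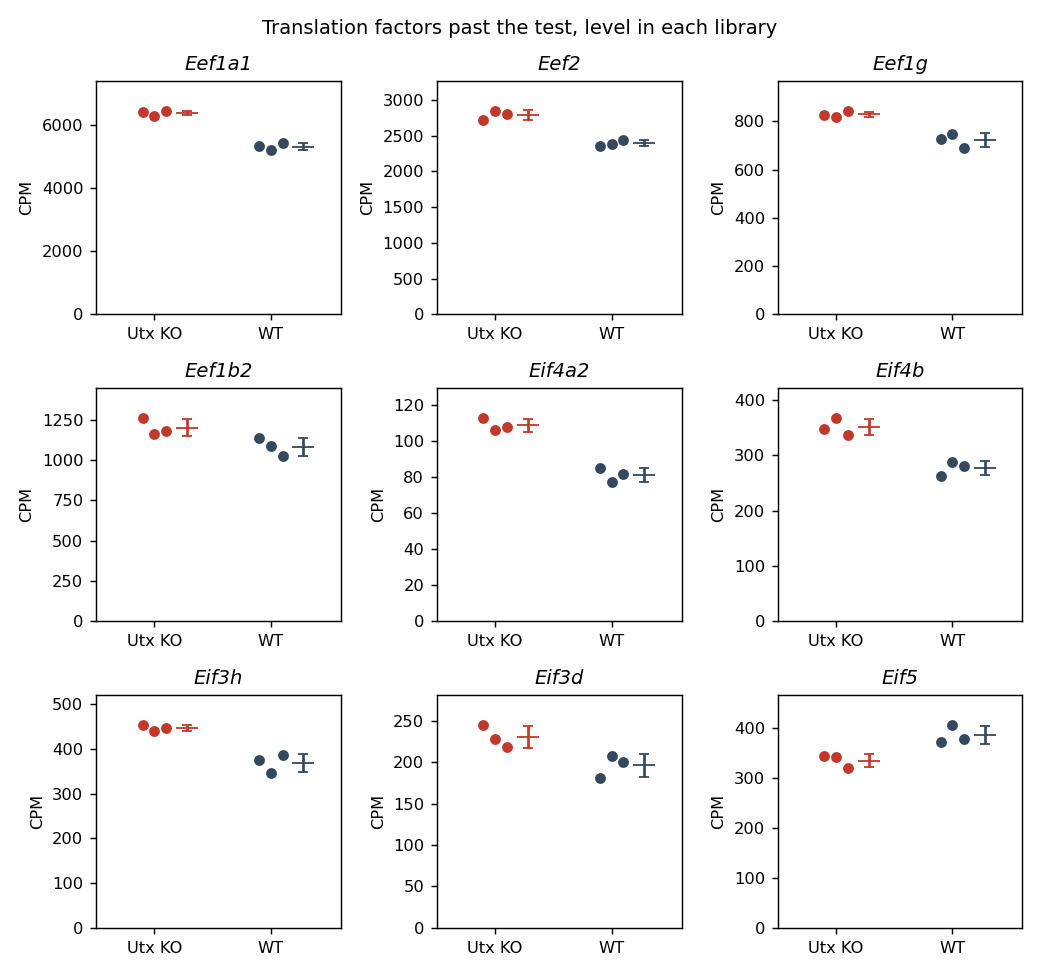
CPM of the 9 members past the test, with 1 point per library and bars for mean ± SD (n = 3 each), each axis starting at 0. Utx KO libraries lie above WT libraries in 8 panels and below them in the panel of Eif5, and the separation is smallest for Eef1b2 and Eif3d.

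Promoters of 7 of the 9 members past the test, all but Eef1g and Eif3h, are shown to let the 2 classes be compared at the sequence level. Each stretch gives 120 bases before and 30 bases after a start listed by RefSeq (GRCm38.p6), 5' to 3' on the gene's strand, with capitals for matches on either strand to the TATA box core TATAAA, the E-box CACGTG, the CCAAT box, the ETS factor core CCGGAA or the cAMP response element core TGACG. For the elongation factors, the stretches shown are those of Eef1a1 (chr9:78481695-78481844, - strand), Eef2 (chr10:81176511-81176660, + strand) and Eef1b2 (chr1:63176711-63176860, + strand).
Eef1a1: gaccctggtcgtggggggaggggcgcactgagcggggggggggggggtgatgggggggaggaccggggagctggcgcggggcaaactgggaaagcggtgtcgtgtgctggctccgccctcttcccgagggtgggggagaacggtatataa
Eef2: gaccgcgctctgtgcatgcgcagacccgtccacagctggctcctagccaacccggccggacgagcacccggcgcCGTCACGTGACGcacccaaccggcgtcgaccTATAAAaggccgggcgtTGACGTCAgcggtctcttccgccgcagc
Eef1b2: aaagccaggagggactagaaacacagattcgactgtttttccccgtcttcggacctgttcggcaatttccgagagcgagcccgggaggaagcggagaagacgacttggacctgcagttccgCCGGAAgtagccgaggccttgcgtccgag

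In Eef2 the stretch holds TATAAA ahead of the start and CACGTG overlapping TGACG further upstream, with TGACG again just after the start, and in Eef1b2 it holds CCGGAA beside the start. The Eef1a1 stretch holds no exact match to these letters, but it ends in tatataa, which the search for TATAAA does not count. The stretches shown for the initiation factors are those of Eif4a2 (chr16:23107348-23107497, + strand), Eif4b (chr15:102073653-102073802, + strand), Eif3d (chr15:77970795-77970944, - strand) and Eif5 (chr12:111537981-111538130, + strand).
Eif4a2: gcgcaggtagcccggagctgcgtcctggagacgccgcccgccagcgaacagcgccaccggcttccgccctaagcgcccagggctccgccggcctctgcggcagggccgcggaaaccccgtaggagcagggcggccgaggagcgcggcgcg
Eif4b: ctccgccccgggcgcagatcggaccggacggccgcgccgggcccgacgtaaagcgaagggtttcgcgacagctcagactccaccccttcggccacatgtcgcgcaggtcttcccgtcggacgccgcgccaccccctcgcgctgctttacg
Eif3d: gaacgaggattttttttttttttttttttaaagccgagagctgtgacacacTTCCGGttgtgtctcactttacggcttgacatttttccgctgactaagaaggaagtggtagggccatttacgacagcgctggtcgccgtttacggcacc
Eif5: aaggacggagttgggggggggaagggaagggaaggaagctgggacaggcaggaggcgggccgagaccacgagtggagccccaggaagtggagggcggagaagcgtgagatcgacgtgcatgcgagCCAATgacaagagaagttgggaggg

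Eif3d holds CCGGAA read on the other strand, Eif5 holds CCAAT, and the stretches of Eif4a2 and Eif4b hold none of the letters searched. Over the full table window of 300 bases, 47 of the 59 members had 61 promoters. CCGGAA was in 42.6% of these and in 14.9% of all 32851 promoters, TGACG in 44.3% and 20.8%, and CACGTG in 24.6% and 7.15%. TATAAA was in 6.56% of member promoters and 13.6% of all promoters, and CCAAT in 24.6% and 37.4%. The matches are a description of letters, counted on both strands, and promoters of 1 gene can overlap. Members had to pass the level limit, whereas the 32851 promoters were taken at any level, so these shares are not like for like.

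Among the initiation factors that passed, those with the largest fold changes belonged to the cap-binding complex eIF4F and its partners. Eif4b, the RNA-binding cofactor that stimulates the eIF4A helicase, had 348, 367 and 338 CPM in Utx KO libraries, against 263, 288 and 281 CPM in WT libraries. No library of one group reached the other, at a log2 fold change of 0.34 (SE 0.06, limma adjusted p = 0.00068). Eif4a2, a helicase of the complex, had 112, 106 and 107 CPM in Utx KO libraries, against 84.6, 77.0 and 81.5 CPM in WT libraries, a log2 fold change of 0.42 (SE 0.09, limma adjusted p = 0.00413). This was the largest fold change among the members that passed. Part of its 3' end (23.7% of pieces) occurs in other genes, and its exons overlap those of Rfc4 on the opposite strand, and whether the counting used strand is not given.

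Eif4a1, the close paralogue and main eIF4A of most cells, had 348, 335 and 305 CPM in Utx KO libraries, against 303, 300 and 317 CPM in WT libraries, with overlap and no call (log2 fold change 0.10, 95% interval -0.03 to 0.23). Of the reads of both paralogues, Eif4a2 took 24.4%, 24.0% and 26.0% in Utx KO libraries, against 21.8%, 20.4% and 20.5% in WT libraries. All Utx KO libraries were above all WT libraries in this share, but the Wilson 95% intervals of single libraries overlap, for example 21.1% to 27.1% in Utx KO replicate 2 and 19.3% to 24.5% in WT replicate 1. These intervals cover counting error only.

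Apart from Eif4b and Eif4a2 none of the 11 genes for eIF4F and its partners passed. This group includes cofactors and relatives that are not subunits of the complex. Of the 11 genes, 4 had a fold change above 0, or 36.4%, against 51% over all tested genes. The share called higher was 18.2%, against 5.28% over all tested genes, but it rests on 2 genes. Eif4e, the cap-binding protein, had 135, 122 and 138 CPM in Utx KO libraries, against 124, 141 and 111 CPM in WT libraries. Eif4g1, the scaffold, had 536, 591 and 530 CPM in Utx KO libraries, against 578, 663 and 582 CPM in WT libraries. In both genes the groups overlapped, with log2 fold changes of 0.08 and -0.14. Eif4g2, a scaffold that lacks the eIF4E-binding site, had a log2 fold change of -0.15 (limma adjusted p = 0.152). The cap-binding relatives Eif4e2, known as a translational repressor, and Eif4e3 had log2 fold changes of -0.20 and -0.18 and limma adjusted p-values of 0.127 and 0.196. Eif4g3, Eif4h and the eIF4E transporter Eif4enif1 lay between -0.05 and -0.09. The sum over the 11 genes differed by -1.48%, at 2572 ± 102 CPM against 2610 ± 63.2 CPM in WT libraries (SD, n = 3 each).

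In eIF3, the scaffold complex that keeps the small subunit ready for the mRNA, 2 of 14 genes rose and none fell, and 10 had a fold change above 0. These shares were 14.3% and 71.4%, against 5.28% called higher and 51% above 0 over all tested genes, but the first rests on 2 genes. The summed level was 4592, 4634 and 4595 CPM in Utx KO libraries, against 4317, 4446 and 4449 CPM in WT libraries, without overlap and 4.60% higher on average. Eif3h, a peripheral subunit, had 454, 439 and 448 CPM in Utx KO libraries, against 376, 346 and 386 CPM in WT libraries. The Utx KO libraries were tightly grouped above the WT libraries, with a log2 fold change of 0.28 (SE 0.06, limma adjusted p = 0.00233). Eif3d, a subunit that can bind the cap itself, had 245, 228 and 219 CPM in Utx KO libraries, against 181, 208 and 200 CPM in WT libraries. Its groups were only just apart (log2 fold change 0.23, SE 0.07, limma adjusted p = 0.0478), and 10 of 13 alternative settings ended the call, including a replicate block and leaving out any library but Utx KO replicate 3 (adjusted p 0.039 to 0.246 over the settings).

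The large core subunits of eIF3 had fold changes near 0. Eif3a, the most abundant of them, had 1198, 1350 and 1320 CPM in Utx KO libraries, against 1253, 1280 and 1294 CPM in WT libraries, and Eif3c had 771, 793 and 740 CPM in Utx KO libraries, against 724, 752 and 780 CPM in WT libraries. Both overlapped, with log2 fold changes of 0.01 and 0.03. Eif3e and Eif3l did not overlap between groups and were higher in Utx KO libraries, at log2 fold changes of 0.11 and 0.17, but neither passed (limma adjusted p = 0.307 and 0.279). Eif3f and Eif3k, at 0.13 and 0.15, overlapped, as did Eif3b, Eif3g, Eif3i and Eif3m, at 0.01, -0.04, 0.05 and -0.06. The loosely attached subunit encoded by Eif3j1 and its copy Eif3j2 lay at -0.17 and -0.10. As 80.1% of the 3' end pieces of Eif3j2 also occur in Eif3j1, reads of this pair cannot be assigned with certainty.

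The genes for eIF2, which carries the initiator tRNA, and for related tRNA carriers held no called gene. Eif2s2, the beta subunit and the most abundant initiation factor, had 1761, 1634 and 1746 CPM in Utx KO libraries, against 1574, 1747 and 1653 CPM in WT libraries. The groups overlapped, and the log2 fold change of 0.05 (95% interval -0.04 to 0.14) lay below that of Eef1a1 over its whole interval. The alpha subunit gene Eif2s1 and the gamma subunit gene Eif2s3x had log2 fold changes of -0.06 and -0.07. The measured level of Eif2s2 was far above that of its partners in the trimer, and 34.7% of its 3' end pieces occur in another gene. Eif2d, which can deliver tRNA without GTP, did not overlap between groups, at 26.7 ± 0.456 CPM in Utx KO libraries and 20.7 ± 2.81 CPM in WT libraries (SD, n = 3 each), but did not pass (log2 fold change 0.36, limma adjusted p = 0.232). Eif2a, a separate tRNA-binding factor despite its name, had 41.7, 54.3 and 55.0 CPM in Utx KO libraries, against 59.7, 59.0 and 56.9 CPM in WT libraries, lower without overlap but not past the test (log2 fold change -0.22, limma adjusted p = 0.314). All 5 subunits of eIF2B, the exchange factor of eIF2, had overlapping groups, with fold changes of -0.24 (Eif2b1) to 0.24 (Eif2b4).

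The 5 genes named for eIF1 and eIF1A, factors that guard start codon choice, all had fold changes below 0 and none passed. Over all tested genes 51% lay above 0, and a group of 5 is too small to read a direction from this count. Eif1, Eif1a and Eif1ad were near 0, at -0.01, -0.05 and -0.05. Eif1 had 839, 767 and 761 CPM in Utx KO libraries, against 822, 809 and 753 CPM in WT libraries. Eif1b had 106, 98.2 and 101 CPM in Utx KO libraries, against 116, 122 and 114 CPM in WT libraries, and Eif1ax had 169, 156 and 162 CPM in Utx KO libraries, against 197, 172 and 182 CPM in WT libraries. The groups of Eif1 overlapped, while those of Eif1b and Eif1ax were apart and lower in Utx KO libraries (log2 fold changes -0.20 and -0.17, limma adjusted p = 0.167 and 0.177).

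Eif5, the activator of the GTPase of eIF2 at the start codon, was the only member that fell. It had 343, 342 and 319 CPM in Utx KO libraries, against 371, 406 and 379 CPM in WT libraries, with the Utx KO libraries all below. This gave a log2 fold change of -0.20 (SE 0.06, limma adjusted p = 0.0328), and the call was lost in DESeq2 and without Utx KO replicate 2 or 3 or WT replicate 2 or 3 (adjusted p 0.0269 to 0.19 over the settings). Eif5b, the GTPase of subunit joining, had 576, 583 and 551 CPM in Utx KO libraries, against 599, 605 and 598 CPM in WT libraries. These did not overlap either, at a log2 fold change of -0.08 (limma adjusted p = 0.411). Eif6, which keeps large subunits from joining too early, and Eif4a3, a helicase of the exon junction complex named as an initiation factor, overlapped between groups. Eif5a, named as an initiation factor but acting in elongation at difficult codons, had 960, 930 and 818 CPM in Utx KO libraries, against 890, 845 and 921 CPM in WT libraries, a log2 fold change of 0.03 (95% interval -0.09 to 0.14). This interval ended below the fold changes of Eef1a1, Eef2 and Eef1g.

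For the members that did not pass, the 95% intervals were set against the log2 fold change of Eef1a1. Of the 41 initiation factors not called, 31 had a 95% interval that ended below the log2 fold change of Eef1a1, whereas this held for 3 of the 9 elongation factors not called. An interval can end below that value through a negative estimate as well as through precision. Counted on both sides, 18 of the 41 and 1 of the 9 lay between the fold change of Eef1a1 and its opposite. Members just inside the level filter were Eef1a2 and Eif5a2, at means of 1.01 and 2.17 CPM. Just outside it, Eef1akmt3 had 4 reads over the Utx KO libraries and 1 over the WT libraries, Eif4e1b had 0 and 2 reads, and Eif2s3y was listed at 0 throughout.

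**Figure D4:**
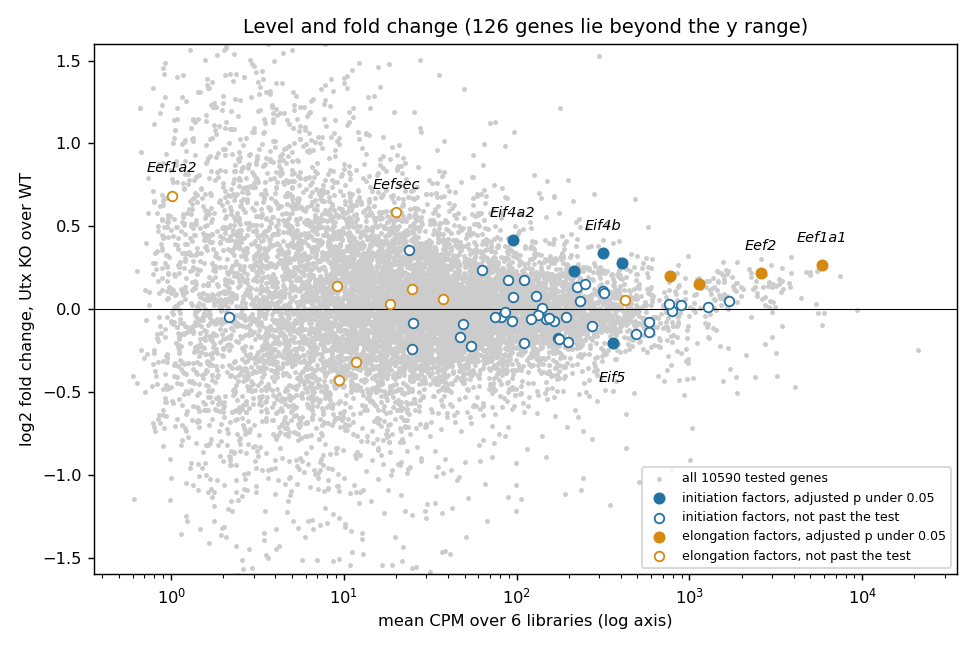
Log2 fold change of Utx KO over WT against mean CPM over the 6 libraries (log axis) for all 10590 tested genes (grey, 126 of them beyond the y range), with initiation factors in blue and elongation factors in orange, filled where the limma adjusted p was under 0.05. The called elongation factors lie at the high end of the level axis, with Eef1a1 at a fold change of 0.26, and the called initiation factors lie at intermediate levels.

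The regulators of these factors were given as lists of known members. None of the 4 eIF2 kinase genes passed, and the nearest was Eif2ak1, the heme-regulated kinase, with 50.8, 62.3 and 47.6 CPM in Utx KO libraries, against 72.8, 67.3 and 66.8 CPM in WT libraries (log2 fold change -0.37, SE 0.12, limma adjusted p = 0.0533). The groups did not overlap, and 4 of 13 alternative settings called it lower. Among 5 genes for eIF4E-binding proteins and eIF4E kinases none passed, and Eif4ebp1 and Eif4ebp2 had log2 fold changes of 0.10 and 0.11 with overlapping groups. None of 8 tested genes for the enzymes that make the hypusine of eIF5A and the diphthamide of eEF2 passed, and none of 5 tested genes for termination and ribosome recycling.

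Of 12 genes in the mTORC1 and S6 kinase pathway, Larp1 fell and none rose. Over all tested genes limma called 5.28% as higher and 5.51% as lower, so single calls in lists this small give no result about a list. Larp1, which binds the cap and the oligopyrimidine tract of ribosomal protein and elongation factor mRNAs, had 473, 521 and 490 CPM in Utx KO libraries, against 567, 601 and 589 CPM in WT libraries. The groups did not overlap (log2 fold change -0.24, SE 0.05, limma adjusted p = 0.0038), and the call held under all 13 alternative settings. Among 5 poly(A)-binding proteins and partners, Pabpc4 rose, with 203, 187 and 162 CPM in Utx KO libraries, against 162, 144 and 140 CPM in WT libraries (log2 fold change 0.31, SE 0.09, limma adjusted p = 0.0249), and lost its call in DESeq2 and without Utx KO replicate 1 or 2 or WT replicate 2 or 3. Pabpc1, which bridges the mRNA tail to eIF4G, had 5441 ± 164 CPM in Utx KO libraries and 5319 ± 98.3 CPM in WT libraries (SD, n = 3 each), with overlap and no call. Its level was close to that of Eef1a1 in WT cells, and its log2 fold change was 0.03. Whether level, Larp1 or the oligopyrimidine tract plays a part in the changes of the factors was not tested. Of 4 effectors of the integrated stress response, Ddit3, a transcription factor induced by stress, rose, with 57.2, 82.2 and 73.5 CPM in Utx KO libraries, against 29.7, 42.9 and 50.3 CPM in WT libraries (log2 fold change 0.80, SE 0.16, limma adjusted p = 0.00138). The exons of Ddit3 overlap those of Mars on the opposite strand, and a second entry of the same symbol was not examined. Atf4, the upstream activator of Ddit3, had 763, 689 and 670 CPM in Utx KO libraries, against 716, 684 and 687 CPM in WT libraries, and did not pass.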

How the data were processed

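RNA from 3 Utx KO and 3 WT samples was sequenced as 3' mRNA libraries. The authors deposited 1 table of CPM per library, per the file headers, for 25655 gene identifiers. Genome builds named in the submitters' processing notes are GRCm38 and mm10. The aligner, the counter, its strand setting and its handling of multiply mapped reads were not given in the sources used here. Division of the deposited CPM by the value of 1 read gave whole reads for 100% of values (tolerance 0.001 reads), with totals of 1619085 to 2529113, so counting error limits genes of few reads. Symbols were found for 25600 identifiers.

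Genotypes were compared by limma-trend (limma 3.58.1, R 4.3.3, two-sided, genotype only) on log2(CPM + 1) for the 10590 genes that reached 1 CPM in 3 libraries or more, with Benjamini-Hochberg adjustment over all of them. Alternatives were a pseudocount of 0.1, no filter, a filter of 10 CPM, TMM scaling, edgeR 4.0.16 and DESeq2 1.42.0 on the recovered reads, a replicate block, and leaving out each library. The scripts were tested on simulated data. Members and lists were chosen with earlier results of these data known. Genes are named if they passed, were the most abundant of their class, or stood in a list of key factors. The other members, among them Eif2d, Eif3e, Eif3l, Eif1b and Eif1ax, were named after their values were seen. Coordinates and exons come from GENCODE M21 (GRCm38), promoters from RefSeq (GRCm38.p6).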

Additional observations from a re-analysis of the deposited data

How the results depend on the processing

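Eef1a1, Eef2, Eif3h, Eif4a2 and Eif4b kept their direction and their call under all 13 alternatives. Under DESeq2 595 genes were called in all and 3 initiation factors passed, and Eef1b2, Eif3d and Eif5 lost their calls. Leaving out 1 library gave 754 to 1042 genes, 5 to 8 members, 3 to 5 initiation factors and 2 to 4 elongation factors past the test, with 5 members and 2 elongation factors left without WT replicate 3 and 754 genes without WT replicate 2. The median log2 fold change lay between -0.0476 and 0.0003 for initiation and between 0.0965 and 0.1997 for elongation factors (0.0003 without WT replicate 1). Eif4e2 passed, lower, without Utx KO replicate 1. Single genes near 0 changed sign when a library was left out, with ranges of -0.0739 to 0.1263 for Eef1e1, -0.0558 to 0.0144 for Eif1, -0.0476 to 0.0774 for Eif2ak3, -0.0537 to 0.1386 for Eif2b5, -0.0201 to 0.066 for Eif3a, -0.0029 to 0.1656 for Eif4e, -0.0202 to 0.0949 for Eif5a and -0.2584 to 0.0712 for Eif5a2. None of these 8 genes was called.

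The labels do not say whether libraries of the same replicate number belong together. Deviations from the group means correlated at -0.00963 to 0.00602 between libraries of the same number and at -0.0217 to 0.0227 between others. No sign of pairing was seen, but with 3 pairs and counting error in genes of few reads this check cannot exclude it. With the replicate block 1065 genes and 8 members passed, and Eif3d was lost. The cause of lost calls was not tested. Enzymes of the elongation class had under 40 CPM, where counting error limits the precision.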
